A study of Mus musculus with 1699 samples.

Results

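The cells described here are the Nxph4-high Th-low neurons of the adult mouse ventral midbrain, 76 cells or 23.4% of the cells kept at postnatal day 90 (P90; 95% Clopper-Pearson interval 18.9 to 28.4). They were chosen from measured values. A cell was kept with a sum of more than 100000 reads, and it belonged to the group with an RPKM (reads scaled to the length of the gene and to all reads of the cell) over 150 for Nxph4 and of 10 or less for Th. All other P90 cells kept served as the comparison, and 94 of them, which passed the same Nxph4 limit but had Th over 10, are given separately as the most similar cells. All intervals cover counting error only. The study reports that neurons with high Slc6a3, the dopamine transporter gene, were underrepresented among its sequenced cells, judged against brain sections. The share of 23.4% is therefore of sorted cells and does not give the abundance of Nxph4-high Th-low neurons in the tissue. Shares among the other cells have the same limit.

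The series holds 1699 single cells, sorted for GFP from dissected ventral midbrain at 6 ages and sequenced with Smart-seq2, a full-length method without molecular identifiers. Every P90 cell is labelled as a Pitx3eGFP/wt heterozygote (allele Pitx3tm1Mli), in which 1 copy of Pitx3 carries the GFP coding sequence, so the members and their comparison cells carried the same genotype, and the sort took whatever cells of the ventral midbrain held GFP protein. The younger ages are E13.5, E15.5, E18.5, P1 and P7, and Pitx3eGFP/eGFP homozygotes, which lack working Pitx3, were taken at E13.5 and P1. Adult tissue was dissociated with papain, and younger tissue with other kits, with separate kits for embryonic and for P1 and P7 tissue per the study's methods, which also say that several animals were used at each age. Each deposited sample is 1 cell and the labels tie none to an animal, so P90 counted as 1 sample, cells were not replicates, and no test was made.

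Nxph4 encodes neurexophilin, a secreted glycoprotein that binds neurexins at the surface of presynaptic terminals. Th encodes tyrosine hydroxylase, the rate-limiting enzyme of dopamine synthesis, and Pitx3 is a transcription factor of midbrain dopamine neurons. The ventral tegmental area of the midbrain holds neurons that release dopamine, glutamate or GABA, and some that release more than 1 of them, and vesicular glutamate transporter 2, made from Slc17a6, loads glutamate into synaptic vesicles there.

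The transcripts that define the cells were also the targets of padlock probes, DNA strands joined into circles on matching cDNA, which the study designed for in situ sequencing on brain sections. The readings of these probes are not analysed here. The study left Nxph4 out when it classified cells on sections, since its signal was overrepresented in most of them. Stretches of 40 bases of transcript under probes are shown for Nxph4 and Th, the genes of the rule, and for C1ql1, a marker given for these cells, where the whole stretch is coding, so that the measured genes can be placed. Capitals mark the 20 bases under the 5′ arm of the probe and lower case the 20 bases under its 3′ arm. The sequences lie on the minus strand of GRCm38, the build that mm10 names.
Nxph4 target 1: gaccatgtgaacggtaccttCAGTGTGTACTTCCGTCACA
Nxph4 target 2: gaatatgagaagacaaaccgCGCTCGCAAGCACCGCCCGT
C1ql1 target 1: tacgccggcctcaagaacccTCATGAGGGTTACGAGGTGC
C1ql1 target 2: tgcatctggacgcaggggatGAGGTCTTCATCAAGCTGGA
Th target 2: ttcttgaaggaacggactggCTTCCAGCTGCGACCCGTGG
The Nxph4 targets lie in exon 2 of 2, at chr10:127526594-127526633 and chr10:127526288-127526327. The C1ql1 targets lie in exon 1 of 2, at chr11:102946026-102946065, and in exon 2, at chr11:102939806-102939845. The Th target runs across exons 7 and 8 of 13, so its span of chr7:142895423-142895532 holds an intron. The genes themselves lie at chr10:127525473-127534559 (Nxph4, ENSMUSG00000040258), chr11:102939264-102946688 (C1ql1, ENSMUSG00000045532) and chr7:142892752-142931128 (Th, ENSMUSG00000000214).

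The values that chose the cells are a description and not a result. Nxph4 in the 76 cells ran from 174.9 over a median of 352.5 to 879 RPKM. The 3 lowest values inside the limit were 174.9, 193.4 and 210.6, and the highest among Th-low cells outside it were 142.1, 136.03 and 57.3, so 2 excluded cells lay just under the limit. Th had a median of 3.4 RPKM (quartiles 2.06 and 5.87), with 9.89, 8.97 and 8.96 as the highest values inside the limit and 10.8, 11.7 and 13.5 as the lowest outside it among Nxph4-high cells. Of the members, 75 had at least 1 Th read. Of the 98 P90 cells with Th of 10 or less, the other 22 lay far from the Nxph4 limit in most cases, since 15 had an Nxph4 RPKM under 1 and 18 had Gad2 over 150.

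**Figure D1:**
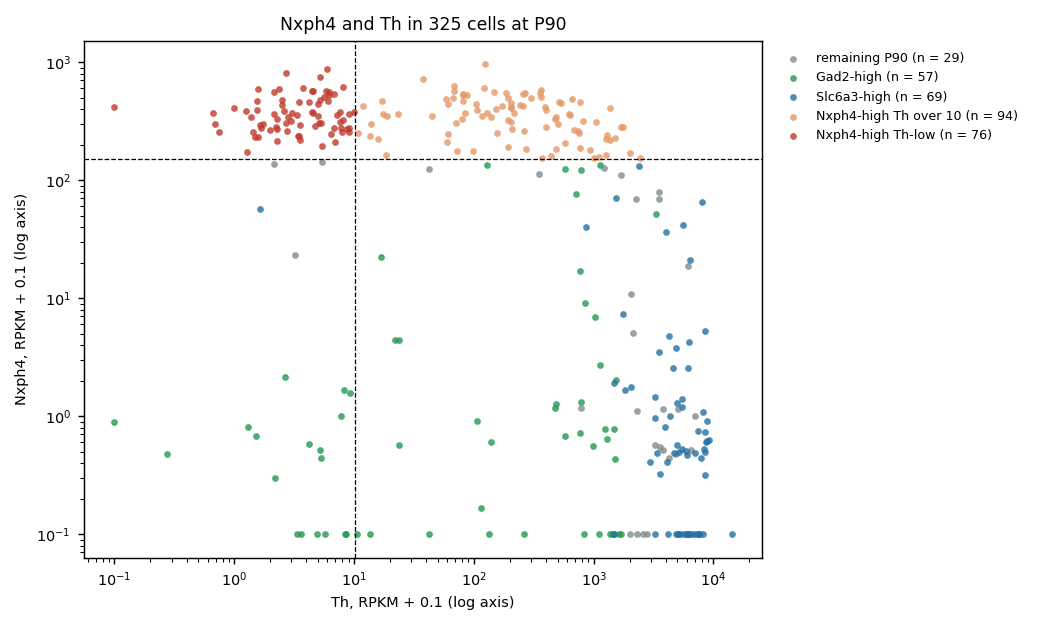
Nxph4 (vertical axis) against Th (horizontal axis) in each P90 cell kept, both as RPKM + 0.1 on log axes, with points marked by group and dashed lines at the limits of 150 and 10. The 76 Nxph4-high Th-low cells fill the upper left field, next to the 94 Nxph4-high cells with Th over 10, whose Th values reach 2424.

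The members had 679334 to 8634201 reads per cell (median 1953033.5), against 100007 to 5616639 (median 1713809) in the other cells, and their medians of genes detected were 8779.5 and 8736. All 76 had at least 4 of 7 neuron markers over an RPKM of 10. Of glial and vascular lists, 1 member and 1 other cell had at least 3 oligodendrocyte markers over 10, and none had 3 markers of microglia, astrocytes or endothelial and mural cells. The summed level of the 8 oligodendrocyte markers ran from 0 over 1.92 to 140 RPKM in members and from 0 over 1.06 to 3630 in the others, and none of the microglia or endothelial markers passed 10 in a member. Of the members, 12 had Xist and no Y-linked gene over 10, 30 the reverse and 0 both, so the cells came from animals of both sexes.

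The Nxph4-high Th-low cells carried the transcript of a glutamate vesicle transporter in every cell. Slc17a6 (chr7:51622006-51671119, plus strand) ran from 92.1 over a median of 326.8 to 710 RPKM, and all 76 cells passed 10, against 85.9% of the other cells (difference 14.1 percentage points, Newcombe interval 7.94 to 18.9). Of the Nxph4-high cells with Th over 10, 97.9% passed. The values of the other P90 cells, 0 over 142.5 to 764, covered those of the members, and cells with Slc6a3 over 150 had the lowest median of the subsets, 22.8. Slc17a7 and Slc17a8, which encode the other vesicular glutamate transporters, were over 10 in 0 of 76 cells, which allows a share of up to 3.95% by the limit of 3 counts of the total.

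Genes of GABA synthesis and loading were at or near 0 in most members. Gad2, which encodes a GABA-synthesising enzyme, was over 10 in 4 of 76 cells (5.26%, 1.45 to 12.9), with a mean of 4.99 RPKM against 177.6 in the other cells, of which 39% passed 10. Gad1, the other such enzyme, passed 10 in 5.26% of members and 3.61% of the others, and Slc32a1, the vesicular GABA transporter, in 0 members.

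Across the genes of dopamine synthesis and transport, 8 of 11 were at least 2-fold lower in members than in the other cells and 0 higher, with the rule gene Th among the 8. Over all 9842 entries compared, 1.39 percent were at least 2-fold higher in members and 2.62 percent lower. Ddc, which encodes the enzyme that turns L-DOPA into dopamine, ran from 0 over a median of 2.10 to 1299 RPKM in the members and from 0.405 over 556 to 3698 in the others. It passed 10 in 20 of 76 members, or 26.3% (16.9 to 37.7), against 91.6% (difference -65.3 points, interval -74.3 to -53.6). Slc18a2, the vesicular monoamine transporter, had a median of 0.754 and a highest value of 159.6 RPKM, and passed 10 in 26 members, or 34.2%, against 86.7% (difference -52.5 points, interval -62.9 to -40.4). Both groups overlapped for each gene, since a minority of members reached levels usual in the other cells, and Ddc and Slc18a2 were over 10 together in 7 members.

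Slc6a3, the dopamine reuptake transporter, passed 10 in none of the members. Its highest value there was 4.75 RPKM, although 62 of the 76 had at least 1 read. Among the other cells 41% passed 10. Gch1, whose product makes the cofactor of tyrosine hydroxylase, was over 10 in 5.26% of members and 35.3% of the others, Slc10a4, a vesicle protein of monoamine neurons, in 3.95% and 53%, and Drd2, the dopamine autoreceptor, in 1 member. Qdpr, which regenerates that cofactor, was over 10 in 100% of members and 98.8% of the others.

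**Figure D2:**
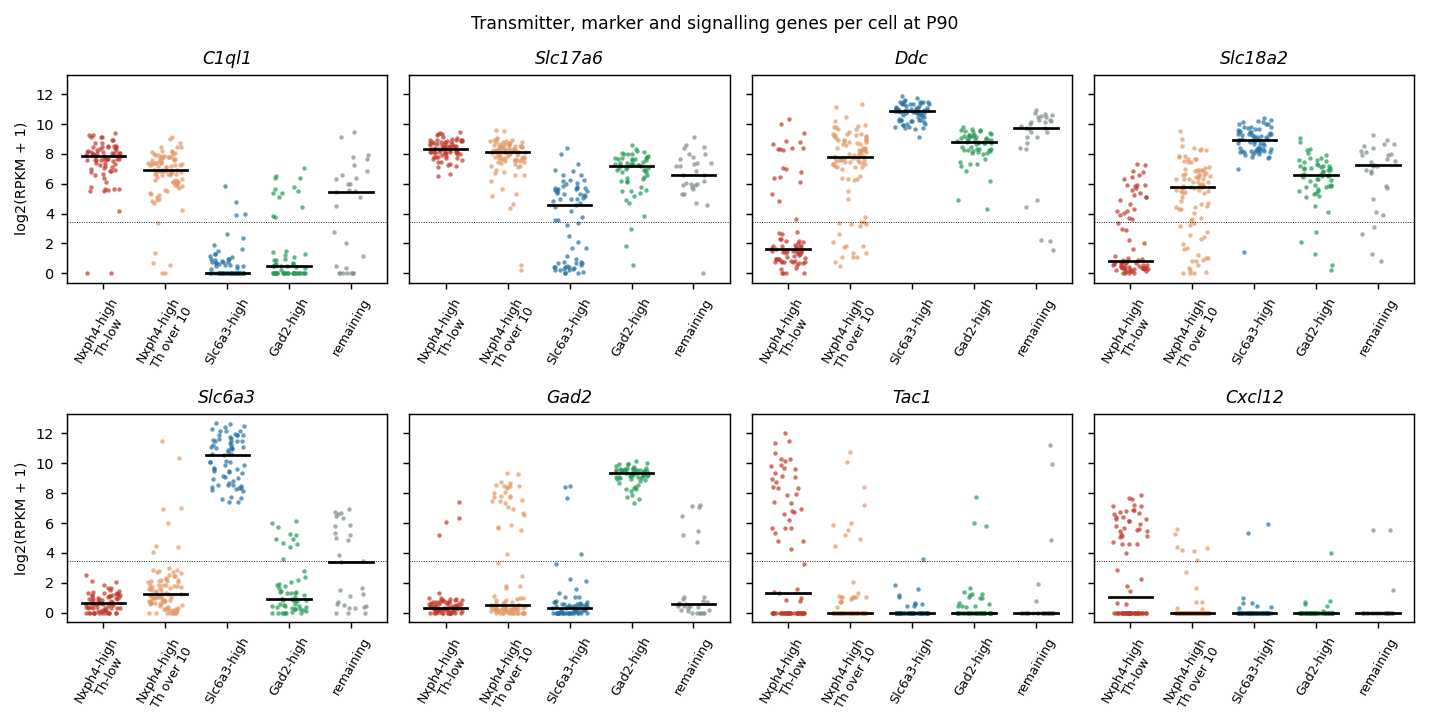
Level of 8 genes in each P90 cell as log2(RPKM + 1), by group, with a black bar at the median and a dotted line at an RPKM of 10. C1ql1 and Slc17a6 are high in the Nxph4-high groups, Ddc, Slc18a2 and Slc6a3 have their lowest medians in the 76 Nxph4-high Th-low cells, and Tac1 and Cxcl12 lie over 10 in a portion of these cells (46.1% and 44.7%).

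Transcripts of the Pitx3 locus were present at mean levels close to those of the other cells. Pitx3 had a mean of 18.3 RPKM against 17.8 and was over 10 in 50% of members and 40.2% of the others (difference 9.84 points, interval -2.76 to 22.3). Of the Nxph4-high cells with Th over 10, 29.8% passed, and this difference was 20.2 points (5.44 to 34). The order of members and others for Pitx3 was not the same on each plate, since the share was 34.5% in members and 40.6% in other cells on plate 4. eGFP, the reporter transcript, had means of 17.1 and 16.1 RPKM and was over 10 in 57.9% and 49%.

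Of 8 midbrain dopamine lineage factors compared, 0 were at least 2-fold higher and 3 lower (En1, Otx2 and Bnc2). Over the lineage, branch and regional lists, Tcf4, Nr4a2, Foxa2, Nfix and Lmx1a had the highest means in members, at 136.7, 126.7, 45.03, 39.8 and 35.6 RPKM, while immediate early factors, listed apart, reached more, with Fos at 878. Nr4a2 and Foxa2, which specify and maintain midbrain dopamine neurons, differed little, with means of 131.7 and 37.96 in the other cells. Lmx1a, a factor of the midbrain floor plate, was over 10 in 78.9% of members and 51% of the others. Its log2 ratio was 0.65 against all other cells and 0.13 against the Nxph4-high cells with Th over 10. En1, another midbrain factor, was over 10 in 30.3% and 62.2%, and Otx2 in 2 members, 1 of which held 86.5% of its summed level. In the same order of comparison groups, the log2 ratios were -1.59 and -0.54 for En1 and -1.91 and -1.63 for Otx2.

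Of 9 transcription factors compared that the study describes for its branches of the lineage, 4 were at least 2-fold higher and 1 lower. Against the Nxph4-high cells with Th over 10, 0 were higher and 1 lower, where 1.1 percent of all 9842 entries were higher and 1.75 percent lower. The list was chosen by the study on these cells, so its direction is not independent evidence. Zfp536, a zinc finger repressor, and the nuclear factor I gene Nfix were each over 10 in 68.4% of members, against 33.3% and 34.5%, and Nfia in 35.5% against 13.3%. Tcf4, a basic helix-loop-helix factor, was over 10 in 100% and 69.1%. Ebf3 was over 10 in 11.8% and 40.2%. Of 23 regional transcription factors, 9 passed 10 in at least 1 member. Among the 4 compared, Neurod1 was at least 2-fold higher (over 10 in 26.3% and 14.1%) and Neurod6 lower (1.32% and 9.24%), and Mab21l1 was over 10 in 65.8% and 51.4%. Barhl1, Foxb1, Sim1 and Pou4f1 had no read in any member, and their log2 ratio against all other P90 cells was 0, so their absence was not particular to members.

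Among the genes of synaptic organisers, 20 were compared, and 4 were at least 2-fold higher, including the rule gene Nxph4, and 2 lower. C1ql1, a secreted C1q-like protein that binds the adhesion receptor Adgrb3, ran from 0 over a median of 229.1 to 690 RPKM in members, and 74 of 76 passed 10 (97.4%), against 49% of the others (difference 48.4 points, 39.4 to 54.8). The Nxph4-high cells with Th over 10 had a C1ql1 median of 118.5 and passed 10 in 93.6%, so both Nxph4-high groups held it in most cells. Nxph1, a second neurexophilin, was over 10 in 65.8% and 24.1%, and Cbln2, a C1q family protein that also binds neurexins, in 52.6% and 25.3%. The neurexin gene Nrxn3 had means of 29.2 and 85.6 RPKM and was over 10 in 42.1% of members and 90.4% of the others.

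The shares of 1.39 percent higher and 2.62 percent lower given above are over entries with a mean of at least 5 RPKM, by the ratio of mean RPKM with 1 added. The rule used the same contrast, so nothing is read from them. Of these entries, 78.1% and 86% had the same direction on each of the 4 plates. From the mean of log2 values the split turned, with 2.44 percent higher and 1.49 percent lower. The median log2 ratio was -0.0046, and it was 0.01 over 61 genes of oxidative phosphorylation, of which 0 passed 2-fold, while 1 of 16 glycolysis genes did, Aldoc, over 10 in 89.5% and 53.4%.

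The genes with the largest ratios in members, taken by a fixed rule, had Cxcl12 and Tac1 at the top. Cxcl12 (chr6:117168535-117181367, plus strand), a chemokine, ran from 0 over a median of 1.15 to 238.5 RPKM with a mean of 36.5, against a mean of 1.56 and a highest value of 59.3 in the others, a ratio of 14.6. It was over 10 in 44.7% of members and 4.82% of the others. Tac1 (chr6:7554879-7565834, plus strand), which encodes substance P and neurokinin A, had means of 311.9 and 29.6 RPKM, a ratio of 10.2, and was over 10 in 46.1% and 6.83%. Its mean leaned on few cells, with a median of 1.52 and a highest value of 4236, and the top cell held 17.9% of the sum.

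Among the 15 genes were also other secreted products or their enzymes. Penk, the enkephalin precursor, was over 10 in 51.3% of members and 16.1% of the others, Adm, which encodes adrenomedullin, in 47.4% and 8.84%, Pdgfd, a growth factor, in 36.8% and 6.43%, and Ptgds, a prostaglandin D synthase, in 55.3% and 10.4%. Of 13 neuropeptide genes compared, 4 were at least 2-fold higher and 5 lower. Adcyap1, which encodes the peptide PACAP, was the most widespread of the 4 higher genes. It was over 10 in 86.8% of members at a median of 278.1 RPKM, against 55.4% and a median of 25.7. The 5 genes on the other side were Cck, Grp, Vip, Crhbp and Npw. For Vip few cells carried the ratio, since it was over 10 in 6.58% of members and 7.63% of the others. Against the Nxph4-high cells with Th over 10 the log2 ratio was 0.62 for Cck, 0.47 for Vip and -0.09 for Npw. Members stayed lower for Grp, at -1.92, and for Crhbp, at -0.84. The value for Cck leaned on a single cell. Calca, the precursor of calcitonin gene-related peptide, was over 10 in 57.9% and 42.2%. Its mean level went the other way, with a log2 ratio of -0.27 against all other cells. Against the Nxph4-high cells with Th over 10 that ratio was -1.10.

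Receptor and membrane genes formed the next portion of the named genes. Htr3a (chr9:48899213-48911099, minus strand), a subunit of the ionotropic serotonin receptor, was over 10 in 40.8% of members, up to 155.6 RPKM, and in 2.41% of the others, a ratio of 8.82. Chrm1, a muscarinic acetylcholine receptor, was over 10 in 48.7% and 6.83%, Oxtr, the oxytocin receptor, in 32.9% and 7.63%, and Gpr37l1, an orphan receptor, in 30.3% and 5.62%. Syndig1, which encodes a protein of excitatory synapses, was over 10 in 31.6% and 4.42%. In the fixed list of G-protein coupled receptors, 4 of 19 were at least 2-fold higher, Cnr1, Oprm1, Hrh3 and Tacr1, and 5 lower, Oprk1, Ntsr1, Chrm2, Drd2 and Avpr1a. The cannabinoid receptor gene Cnr1 was over 10 in 81.6% and 41%, at means of 52.1 and 16.8 RPKM.

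Car10 (chr11:93098028-93601749, plus strand), a secreted carbonic anhydrase-like protein that binds neurexins, was the most widespread of the 15 named genes, over 10 in 78.9% of members and 22.9% of the others, with medians of 63.6 and 0 RPKM. The remaining members of the 15 were Eepd1 (56.6% and 16.9%), Plekhb1 (38.2% and 12.9%) and Tnnt2, a cardiac troponin gene (32.9% and 3.61%). Ratios ran from 14.6 down to 4.46. For all 15 genes some of the other cells lay over 10, so no single gene of them separated the groups.

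Channels and calcium-binding proteins held differences in both directions. Of 26 ion channel genes compared, 2 were at least 2-fold higher, with Kcnip1, a potassium channel subunit, at means of 108.8 and 47.4 RPKM, and 3 lower. Cacna2d3, a calcium channel subunit, was among the lower, over 10 in 11.8% of members and 49% of the others. Of 8 calcium-binding genes, Hpcal1 (736 and 358.3) and Necab2 (83.2 and 27.3) were higher, and Calb1, the calbindin gene, was lower, over 10 in 31.6% of members and 77.5% of the others. Calb2, which encodes calretinin, was over 10 in all 76 members at a median of 732 RPKM, against 489. None of 12 GABA receptor genes passed 2-fold in either direction, and of 16 glutamate receptor genes 0 were higher and 2 lower. Over all 9842 entries 1.39 percent were higher and 2.62 percent lower, so counts of 0 lay near those shares.

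The genes with the largest ratios on the side of the other cells were led by genes of dopamine neurons. Since the rule chose members for low Th, this direction follows in part from that choice. Aldh1a1, a retinaldehyde dehydrogenase of a subset of dopamine neurons, had a mean of 1.49 RPKM in members and 902 in the others, a ratio of 362, and Slc6a3 a ratio of 314.8. Chrna6 and Chrnb3, subunits of nicotinic receptors found on dopamine neurons, were over 10 in 0 of 76 members and in 56.2% and 61.8% of the others, at ratios of 125.1 and 121.1. Their highest values in members were 1.47 and 1.30 RPKM, although 46 and 53 of the members had reads of them. The rest of the 15 were Grp, Cck, Slc10a4, Anxa1, Npw, Gad2, Drd2, Casr, Gm14204, Crhbp and Avpr1a, at ratios of 90.8 to 21.7. Where a mean in members was under 1, the ratio was held down by the 1 added to it. Cck in members rested on 1 cell at 805 RPKM, which held 88.8% of the sum.

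Of 22 synaptic vesicle genes 0 were at least 2-fold higher and 4 lower, and against the Nxph4-high cells with Th over 10 both counts were 0. The shares over all 9842 entries were 1.39 and 2.62 percent in the first contrast and 1.1 and 1.75 percent in the second. Syt1, a calcium sensor of vesicle release, had means of 71.1 and 325.9 RPKM, and Cplx1, a complexin, 113.9 and 347.2. For Cplx1 the share over 10 went the other way, 92.1% in members and 79.5% in the others, whose highest value was 11931. The list of dopamine subtype genes had 0 of 13 higher and 8 lower.

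**Figure D3:**
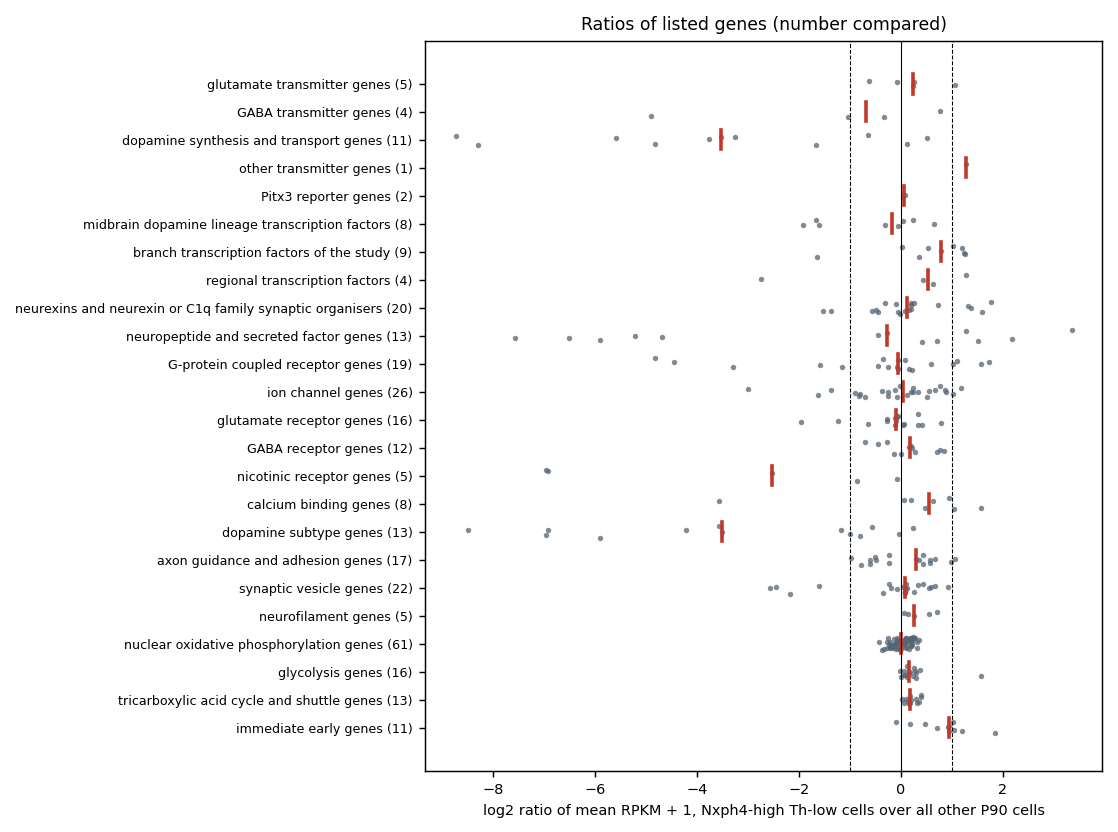
Log2 ratio of mean RPKM + 1, members over all other P90 cells, for each gene of the lists, with a red bar at the list median and dashed lines at 2-fold. Dopamine synthesis and dopamine subtype genes extend far to the left, and oxidative phosphorylation genes stay within 2-fold.

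The Nxph4-high cells with Th over 10 were the closest comparison. In this narrower contrast 1.1 percent of the 9842 entries were at least 2-fold higher in members and 1.75 percent lower, and the rule used the contrast again through Th. The 8 named genes with the largest ratios were Cxcl12 (12.9), Dkkl1 (12.7), Pdgfd (8.70), Tac1 (8.06), Syndig1 (6.84), Htr3a (6.55), Tacr3 (6.19) and Plekhb1 (6.06). Dkkl1 was over 10 in 14.5% of members and 1.06% of these cells, and Tacr3, the neurokinin B receptor, in 32.9% and 7.45%. Across all other P90 cells Tacr3 had no such ratio, with means of 24.7 and 25.7 RPKM. On the other side stood Chrnb3, Chrna6, Slc6a3, Gad2, Casr, Asb4, Aldh1a1 and Gm14204.

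The 170 Nxph4-high cells were also ordered by Th. Tac1, Car10, Htr3a, Chrm1 and Chrnb3 were named for their ratios in a contrast that used Th, so their direction along Th follows in part from that choice. Over the steps of Th of up to 5 (50 cells), 5 to 10 (26), 10 to 50 (12), 50 to 150 (24) and over 150 (58), Ddc was over 10 in 28%, 23.1%, 58.3%, 62.5% and 93.1%. Slc18a2 was over 10 in 30%, 42.3%, 50%, 66.7% and 84.5%. Tac1 went the other way, with 48%, 42.3%, 33.3%, 20.8% and 1.72%, and so did Car10, with 82%, 73.1%, 50%, 33.3% and 29.3%.

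The share of cells with C1ql1 over 10 differed little along these steps, with 98%, 96.2%, 91.7%, 95.8% and 93.1%. Its mean level did differ, with a log2 ratio of 0.72 in members over the Nxph4-high cells with Th over 10. Cnr1 was over 10 in 80%, 84.6%, 83.3%, 58.3% and 58.6%, and Chrm1 in 42%, 61.5%, 33.3%, 12.5% and 8.62%, so not every gene went step by step. Chrnb3 was over 10 in 0 cells of the first 3 steps, in 4.17% of the fourth and in 41.4% of the last. Htr3a was over 10 in 44% and 34.6% of the 2 steps inside the members and in 8.33%, 0% and 5.17% beyond. For Ddc the widest step, from 23.1% to 58.3%, lay at the Th limit, and with 12 cells between 10 and 50 the shares next to that limit are loose.

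The 76 cells were not alike among themselves. Of Tac1, Penk, Cxcl12, Htr3a and Oxtr, a set taken after the values were seen, 7 members had 0 over 10, 17 had 1, 19 had 2, 23 had 3, 10 had 4 and 0 had all 5. Of the other cells, 180 had none of the 5 and 0 had more than 3. The 5 genes were among those named for their ratios over these same other cells, so the low counts there follow from that choice.

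Pairs of genes, also picked after their values were seen, ran with or away from each other. Cxcl12 and Oxtr were over 10 together in 21 cells, and Oxtr passed 10 in 61.8% of the 34 Cxcl12 cells and 9.52% of the rest (Pearson r of log2 values 0.56 over 76 cells, as a description). Cxcl12 and Tnnt2 were also over 10 together in 21 cells (r = 0.51). Tac1 lay away from them, since Oxtr passed 10 in 14.3% of the 35 Tac1 cells and 48.8% of the others (r = -0.35), and Cxcl12 in 22.9% and 63.4% (r = -0.31). Tac1 and Tacr3 were over 10 together in 17 cells, with Tacr3 in 48.6% of Tac1 cells and 19.5% of the rest.

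Penk, in pairs picked in the same way, ran with Adcyap1 and away from Calb1. All 39 Penk cells had Adcyap1 over 10, against 73% of the other members, and Calb1 passed 10 in 10.3% of the Penk cells and 54.1% of the rest (r = -0.49). Ddc passed 10 in 14.3% of the Tac1 cells and 36.6% of the others. Both genes of a pair were read in the same cell, so they share its depth and plate. Cxcl12 and Oxtr were over 10 together in 9, 2, 8 and 2 cells of plates 1, 2, 4 and 5.

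**Figure D4:**
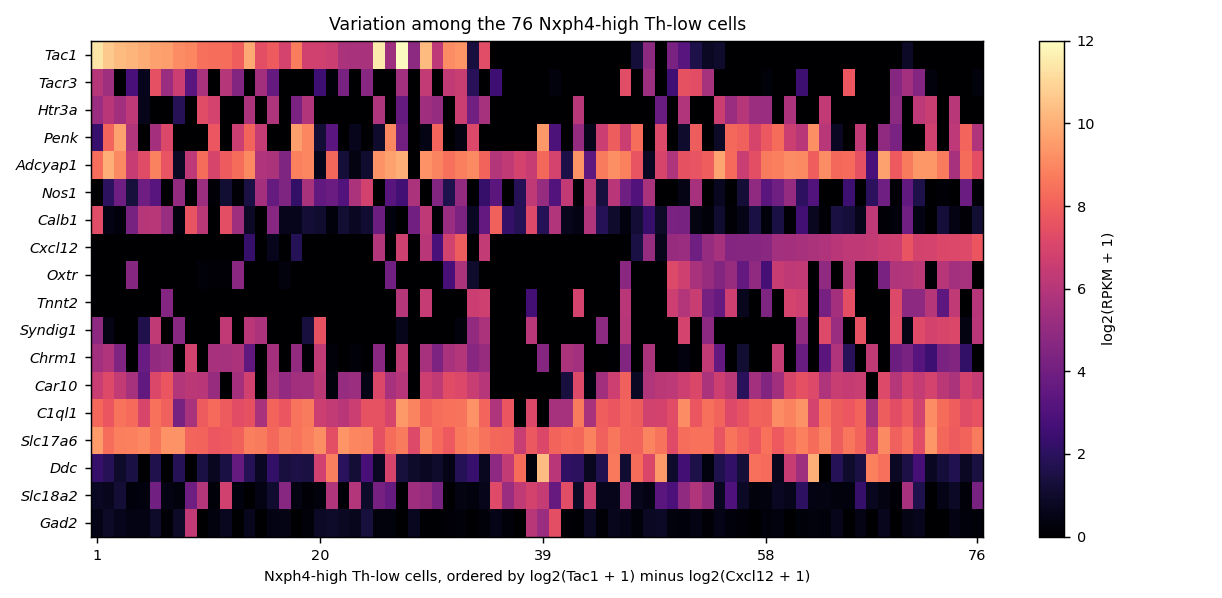
Heat map of log2(RPKM + 1) for 18 genes in the 76 Nxph4-high Th-low cells, ordered by the difference of Tac1 and Cxcl12. Slc17a6 is high in all cells, Oxtr and Tnnt2 lie mostly at the Cxcl12 end, and Tacr3 more often at the Tac1 end.

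The titles carry plate numbers, and the members were 18 of 94 cells on plate 1 (19.1%), 17 of 92 on plate 2 (18.5%), 29 of 93 on plate 4 (31.2%) and 12 of 46 on plate 5 (26.1%). C1ql1 was over 10 in 94.4%, 94.1%, 100% and 100% of members on plates 1, 2, 4 and 5, against 51.3%, 54.7%, 54.7% and 20.6% of the other cells. Tac1 was over 10 in 38.9%, 41.2%, 48.3% and 58.3% of members, against 10.9% or less, and Cxcl12 in 55.6%, 41.2%, 44.8% and 33.3%, against 7.81% or less. Ddc passed 10 in 16.7% to 35.3% of members and 85.9% to 100% of the others. Tac1 and Cxcl12 were named for having the same direction on each plate, so their agreement across plates follows from that choice.

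Immediate early genes and Vip did depend on the plate. Of 11 immediate early genes compared, 4 were at least 2-fold higher in members (Fosb, Ier2, Arc and Nr4a1) and 0 lower. By plate, the log2 ratio of Fos was 1.43, 1.53, -0.05 and -1.22 on plates 1, 2, 4 and 5, and that of Arc 1.97, 1.86, 0.48 and -1.72. Vip, over 10 in 5 members, was so on plate 5 alone, in 41.7% of its members and 23.5% of its other cells. What set these differences between plates was not tested.

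**Figure D5:**
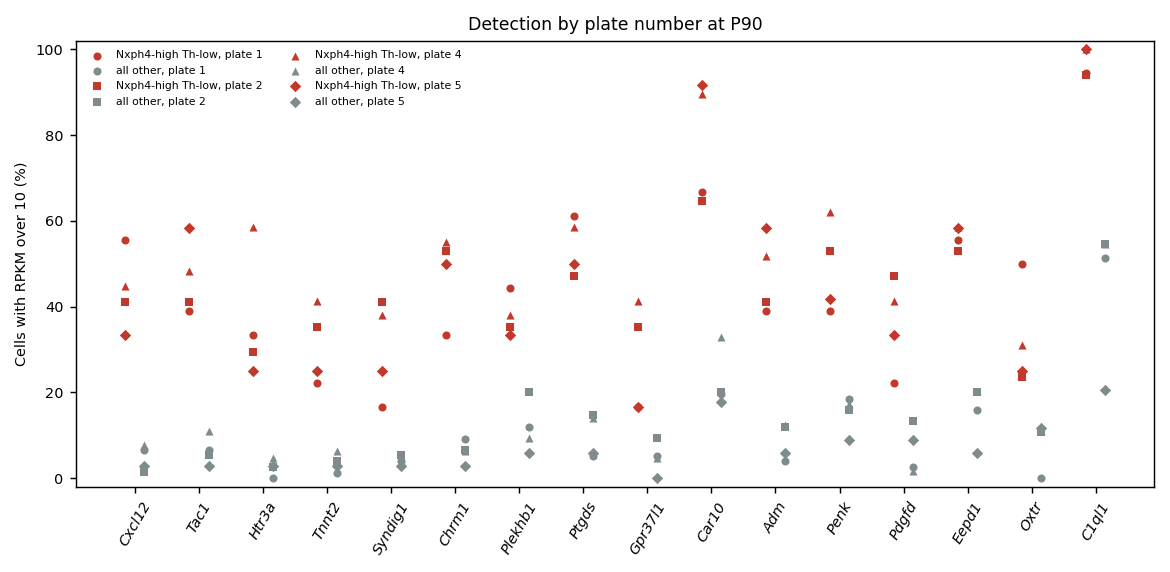
Percent of cells with an RPKM over 10 for C1ql1 and the 15 named genes with the largest ratios, in members and in the other cells of each plate number. The members lie above the other cells on plates 1, 2, 4 and 5 for C1ql1. The 15 named genes were chosen for the same direction of their ratio on each plate.

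Thinned to 100000 reads per cell, C1ql1 was over 10 in 97.4% of members and 48.2% of the others, Ddc in 28.9% and 93.6%, and Slc6a3 in 1.32% and 41.4%. Tac1 was over 10 in 46.1% and 7.23%, and Htr3a in 36.8% and 2.81%. Over the 30 genes named by their ratio against all other cells, the difference kept its sign in 30, and the largest change was 4.46 percentage points, for Chrm1. Over all 462 named and listed genes it changed sign in 29, among them Jun and Jund, and Th itself was then over 10 in 17.1% of members.

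The same limits picked cells at each younger age. They took 19 of the E13.5 heterozygous cells (13.6%). Of later heterozygotes they took 15 E15.5 cells (10.6%), 11 E18.5 cells (5.85%), 33 P1 cells (10.3%, interval 7.23 to 14.2) and 8 P7 cells (4.26%). In Pitx3eGFP/eGFP homozygotes they took 42 cells (22.6%) at E13.5 and 19 (10.2%) at P1. At least 3 glial or vascular markers of a list were over 10 in 2 heterozygous cells at P90, 110 at P7 and 63 at P1, with 6 in the E18.5 group, 1 in the E15.5 group and 0 in the E13.5 group. Without these cells, a setting added after the data were seen, the shares were 12.1% (8.38 to 16.7) at P1, 8.97% (3.69 to 17.6) at P7 and 23.2% (18.7 to 28.2) at P90. The embryonic groups shared a dissociation kit, as did P1 and P7, while P90 had its own, so between kits age and dissociation cannot be told apart.

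At P1 the cells under the same limits held the glutamate transporter in nearly all cases. They held 6 of the 15 named genes less widely than at P90, and the rest of the 15 were not examined by age. These 6 were named for high ratios in the P90 members, so lower shares at other ages follow in part from that choice. In the 33 heterozygous P1 cells Slc17a6 was over 10 in 97%, C1ql1 in 63.6%, Adcyap1 in 45.5% and Tac1 in 24.2%. Car10 was over 10 in 27.3%, Penk in 9.09%, Cxcl12 in 3.03%, Oxtr in 9.09% and Htr3a in 0%, and Htr3a was over 10 in no cell picked at any younger age. Ddc was over 10 in 60.6% of the P1 cells and in 100% of those at E13.5, against 26.3% at P90, and eGFP in 84.8% against 57.9%.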

How the data were processed

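Single GFP-sorted cells were measured by Smart-seq2. The authors aligned reads to mm10 with STAR, kept uniquely mapped reads, and deposited, for each of 39468 entries, RPKM values made with rpkmforgenes and read counts, which were not normalized. Symbols were matched for 38130 entries, and 0.207% of P90 reads lay on the rest. Of 333 P90 cells, 325 had a reads sum over 100000, which left 249 outside the 76 members. Cells kept at the other ages numbered 140 (E13.5), 141 (E15.5), 188 (E18.5), 319 (P1) and 188 (P7) for heterozygotes and 186 (E13.5) and 187 (P1) for homozygotes. Levels are RPKM. A cell expressed a gene over an RPKM of 10. Ratios are of mean RPKM with 1 added, over 9842 entries with a mean of at least 5, of which 137 were at least 2-fold higher and 258 lower in members (108 and 172 against Nxph4-high cells with Th over 10). Named genes were the 15 entries with a symbol and the largest ratio in each direction (8 against Nxph4-high cells with Th over 10), with the same direction on each plate and a Newcombe interval of the share difference without 0, leaving out Nxph4 and Th, plus list genes. The members, lists and rule were chosen with earlier results of these data known. Thinning drew 100000 reads per cell (seed 1). No doublet caller was run. No P90 files had identical counts, and the correlation between members was at most 0.622 (median 0.511). Coordinates are from GENCODE vM21. Slc18a3 was not matched. Python 3.11.15, NumPy 2.4.6, SciPy 1.17.1 and pandas 2.3.3 were used, and the calculations were tested on simulated data.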

Additional observations from a re-analysis of the deposited data

How the results depend on the processing

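Under the alternative settings 18 values moved and no share difference changed sign, while more entries were higher than lower from the mean of log2 values. With Nxph4 over 300 the limits took 48 cells, and with Th of 1 or less 5 cells, for which 5.96% of entries were at least 2-fold higher and 18.8% lower, and the share differences were -77.5 points for Ddc, -35 for Slc18a2 and -31.9 for Slc6a3, with intervals that held 0 for Slc18a2 (-63.6 to 2.27), Slc6a3 (-37.2 to 11.8), C1ql1 (-3.45 to 45.8) and Slc17a6 (-32.6 to 14.8). The percent of compared entries higher and lower was 2.36 and 4.12 with a mean of at least 1, 0.640 and 1.71 with a mean of at least 20, 0.406 and 0.803 with 10 added, and 2.44 and 1.49 from the mean of log2 values. A limit of 1 gave -26.8 points for Ddc, and a limit of 50 gave 30.5 for Slc17a6. Leaving out each plate in turn left 47 (without plate 4) to 64 cells, 1.36 to 1.88 percent of entries higher and 2.77 to 3.37 lower, and differences of 43.4 to 51.8 points for C1ql1, 13.0 to 15.7 for Slc17a6, -68.0 to -62.1 for Ddc, -57.4 to -47.0 for Slc18a2 and -42.2 to -38.2 for Slc6a3. With Th of 1 or less the group is small by construction, and the causes of the other shifts were not tested. Chosen again on thinned reads, 66 cells passed, of which 63 were members before. No paired analysis was possible because the labels name no animal and no test was made.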
